A study of Chlorocebus sabaeus with 12 samples.

Results

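The comparison described here asks which genes responded to the bile acid chenodeoxycholic acid (CDCA) in cells that carried FXR S154D. FXR is the farnesoid X receptor, encoded by NR1H4, and S154D has an aspartate in place of the serine of that position. Its members are 6 of the 12 arrays of the series, chosen by their titles: 3 from FXR S154D cells given CDCA and 3 from FXR S154D cells given DMSO. COS-1, a kidney cell line of the African green monkey, was made to express the mutant by transient transfection for 24 h and then received CDCA, listed in the labels as 50 mM, or 0.1% DMSO, the solvent, for 24 h. The other 6 arrays, 3 with CDCA and 3 with DMSO, are of COS-1 cells that expressed FXR S154A, with alanine at the same position, and were used to estimate the spread between arrays and to test differences between the mutants. Neither wild-type FXR nor untransfected cells are among the groups, so all cells compared carried a mutant receptor brought in on transfection, and the promoter that drove it is not given in the sources used here. The labels do not say whether replicates came from separate cultures, so each p-value measures the spread between these arrays, which may be technical.

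FXR is a nuclear receptor that binds bile acids. It pairs with the retinoid X receptors RXRA and RXRB on DNA and, once a bile acid such as CDCA is bound, raises transcription of genes that export, carry or limit the synthesis of bile acids in liver and intestine. The serine replaced lies in or next to the DNA-binding domain. Alanine at this place cannot be phosphorylated, whereas the negative charge of aspartate is commonly used to resemble a phosphate.

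Labelled monkey RNA was hybridised to one-colour Agilent arrays of 60-base human probes. A value is the log2 of a probe's processed signal over the 75th percentile of its array, so 0 is a bright probe and each unit is a doubling. On the S154D arrays 66.8% to 73.4% of the probes were well above background. A gene was represented by its brightest probe. Of 20357 genes tested, 19153 were well above background on all 6 S154D arrays, and for 10269 the gene name also occurs among the symbols of the green monkey. The kidney and mesenchymal markers VIM (6.92 to 7.44 over the 6 arrays) and PAX8 (2.36 to 2.77) and the epithelial marker KRT18 (5.92 to 6.27) were well above background on all 6, whereas the leukocyte marker PTPRC and the enterocyte marker FABP2 were so on 0. The hepatocyte marker ALB (-0.85 to -0.43) was also well above background on all 6. The summed level of the kidney and mesenchymal list was 4.52 to 4.76 on DMSO arrays and 4.47 to 4.64 on CDCA arrays, and that of the leukocyte list was -1.35 to -0.77 and -1.60 to -1.13. In bulk RNA of this kind, fewer cells of a type and less RNA per cell cannot be told apart.

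A change is called here when limma's moderated test, fitted on all 12 arrays, gave a Benjamini-Hochberg adjusted p under 0.05. By that rule 2077 genes were called in S154D cells, 10.2% of those tested: 1334 were higher with CDCA (6.55%) and 743 lower (3.65%). That count was 0 in a fit of only the 6 S154D arrays, and 0 without the filter or with slide as a term. The changes went with the share of G and C in the 60 bases of the probe. Probes with few G and C gave higher values with CDCA and probes with many gave lower values. For this reason every change below is given before and after a correction, in which a smooth curve over probe GC was fitted to each array's deviations from the 12-array mean and subtracted. After it 0 genes were called (smallest limma adjusted p = 0.108), while 4046 had an unadjusted p under 0.05.

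The probes behind the genes at the ends of that range are shown first, as the first 30 of their 60 bases, 5′ to 3′, with G and C in capitals. For the first 3 genes a pair of probes of the same gene is shown, the one with less GC before the one with more.
SENP6, probe of 21.7% GC: tCtatGGtaatattttGaCCCtttatattt
SENP6, probe of 35% GC: CttaCattatGaCCCaatataCattatGaC
TRAF7, probe of 18.3% GC: tttCaGttGGtaaatGGttttCtataGaat
TRAF7, probe of 51.7% GC: atCaCCaCattGtCtGtGGCaCCtaCGaGa
SYVN1, probe of 28.3% GC: aaGtttaGaattGGaattaCttCCttaCta
SYVN1, probe of 60% GC: GCatCCCCtaGGCCaaGtGGaaaGaGGCtG
STK11, probe of 83.3% GC: CCGtGGCCtCGtGCtCCGCaGGGCGCCCaG
PPA2, probe of 35% GC: ttaGttGaatCGGtatCatCttCaCCaaat
CFD, probe of 55% GC: GGCCtGaaGGtCaGGGtCaCCCaaGCaaCa
In the files' human build hg17 these probes lie, in the same order, at chr6:76482423-76482482, chr6:76446075-76446134, chr16:2167992-2168051, chr16:2165915-2166069, chr11:64651575-64651634 and chr11:64652241-64652300 (minus strand, as for PPA2), chr19:1178891-1178950, chr4:106648504-106665339 and chr19:814247-814306. The wide intervals of the second TRAF7 probe and of PPA2 exceed the probe's length. SENP6, TRAF7, SYVN1 and STK11 are shown because they follow the GC trend, PPA2 because it kept most of its change, and CFD because it moved against it.

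The RNA signal of the receptor was high and of similar level in both treatments. NR1H4 read 7.90, 7.94 and 7.46 on the DMSO arrays and 7.71, 7.49 and 7.49 on the CDCA arrays. The groups overlapped, and the difference of -0.20 ± 0.15 (SE, n = 3 against 3) was not called (limma adjusted p = 0.396); after the GC correction it was -0.17. Its 95% interval before correction ran from -0.54 to 0.13. The probe lies at chr12:99459659-99459718 of hg17; how far it reads the monkey's own NR1H4 message was not tested.

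RXRA, a partner that FXR needs on most of its sites, read 3.03, 2.99 and 2.88 with DMSO and 2.42, 3.09 and 3.15 with CDCA. The first CDCA array was the low one, and the difference of -0.08 ± 0.17 was not called (limma adjusted p = 0.793). RXRB, the related partner, read 0.12, -0.01 and 0.27 with DMSO against -0.12, -0.84 and -0.97 with CDCA. All CDCA arrays lay below all DMSO arrays, the first of them by a small gap. RXRB fell by 0.77 ± 0.21 on the log2 scale (limma adjusted p = 0.0463) and was at -0.55 after the GC correction (unadjusted p = 0.0121). The response of RXRB in S154A cells was -0.02 ± 0.21, but the difference between the mutants was not called (-0.76, limma adjusted p = 0.178).

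In S154D cells 0 of 30 FXR targets were called higher with CDCA, beside 6.55% of all genes. The change was positive for 15 of the 30. OSTalpha (SLC51A), a subunit of the transporter that carries bile acids out of cells, read 0.49, 0.65 and 0.25 with DMSO and 0.97, 0.53 and 0.49 with CDCA. These ranges overlapped, and the change of 0.20 ± 0.18 was not called (limma adjusted p = 0.49; 95% interval -0.20 to 0.59). Under the same treatment the S154A arrays went from 0.46, 0.76 and 0.22 to 3.17, 3.01 and 2.92. The difference of the responses, S154D minus S154A, was -2.36 ± 0.25 (limma adjusted p = 0.0213) and -2.44 after the GC correction (adjusted p = 0.00514).

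FABP6, the bile acid carrier protein of intestinal cells, was near background in S154D cells: -6.16, -6.01 and -6.29 with DMSO and -4.75, -6.02 and -7.20 with CDCA, well above background on 1 and 2 of the 3 arrays. With S154A it read -3.47, -4.89 and -5.32 with DMSO and 2.58, 2.53 and 2.45 with CDCA. The responses differed by -6.92 ± 0.80 (limma adjusted p = 0.0213; -6.76 and adjusted p = 0.0138 after the GC correction). Since the S154D values lie near background, the size of this difference is uncertain. FGF19, the hormone that signals bile acid load from intestine to liver, was well above background on 1 of 3 arrays in each S154D group. It read -6.06, -7.35 and -7.81 with DMSO and -4.92, -8.26 and -7.44 with CDCA, against -1.22, -1.31 and -0.91 with S154A and CDCA. With S154A and DMSO FGF19 was well above background on 0 of 3 arrays, so no size is given for the difference of the responses. That difference was not called (limma adjusted p = 0.0631 before and 0.0824 after the GC correction). The first CDCA array of S154D was the highest of the 3 for OSTalpha, FABP6 and FGF19.

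The remaining FXR genes followed the same order. FETUB, a secreted protease inhibitor of liver, read -5.08, -4.47 and -4.79 with DMSO and -4.70, -4.97 and -4.95 with CDCA, overlapping; its responses differed by -1.80 ± 0.24 (limma adjusted p = 0.0371). SDC1, a cell-surface proteoglycan, read 3.61, 3.72 and 3.41 and then 3.42, 3.48 and 3.56; the difference between mutants was -1.23 ± 0.17 (limma adjusted p = 0.0381). A dimmer second SDC1 probe, of 55% GC, gave a change of -0.66 ± 0.13 in S154D cells and -0.37 corrected. HRG, a plasma glycoprotein made in liver, was well above background on 1 DMSO array and on 0 CDCA arrays of S154D, so only a bound is available there. With CDCA it was at least 9.77-fold higher in S154A than in S154D cells (-2.94 against a bound of -6.23, measured -6.38). HRG was kept for testing only through the S154A CDCA arrays, the group where it is high. Its fitted difference of responses passed the threshold, but it has no measured size and is not taken as support.

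RBP4, the carrier of retinol in plasma, read -1.05, -0.84 and -1.07 with DMSO and -0.48, -0.86 and -0.85 with CDCA in S154D cells. The highest DMSO array just passed the lowest CDCA array, and the change of 0.26 ± 0.15 was not called (limma adjusted p = 0.263). Its responses differed by -1.95 ± 0.21 (adjusted p = 0.0213). OSTbeta, the other transporter subunit, was well above background on 0 DMSO arrays and 1 CDCA array of S154D, and its difference of responses was not called (limma adjusted p = 0.339). Not tested were NR0B2, a corepressor induced by FXR, ABCB11, which exports bile salts from hepatocytes, and CYP7A1, which starts bile acid synthesis, since in no group of the series were all 3 arrays well above background.

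**Figure D1:**
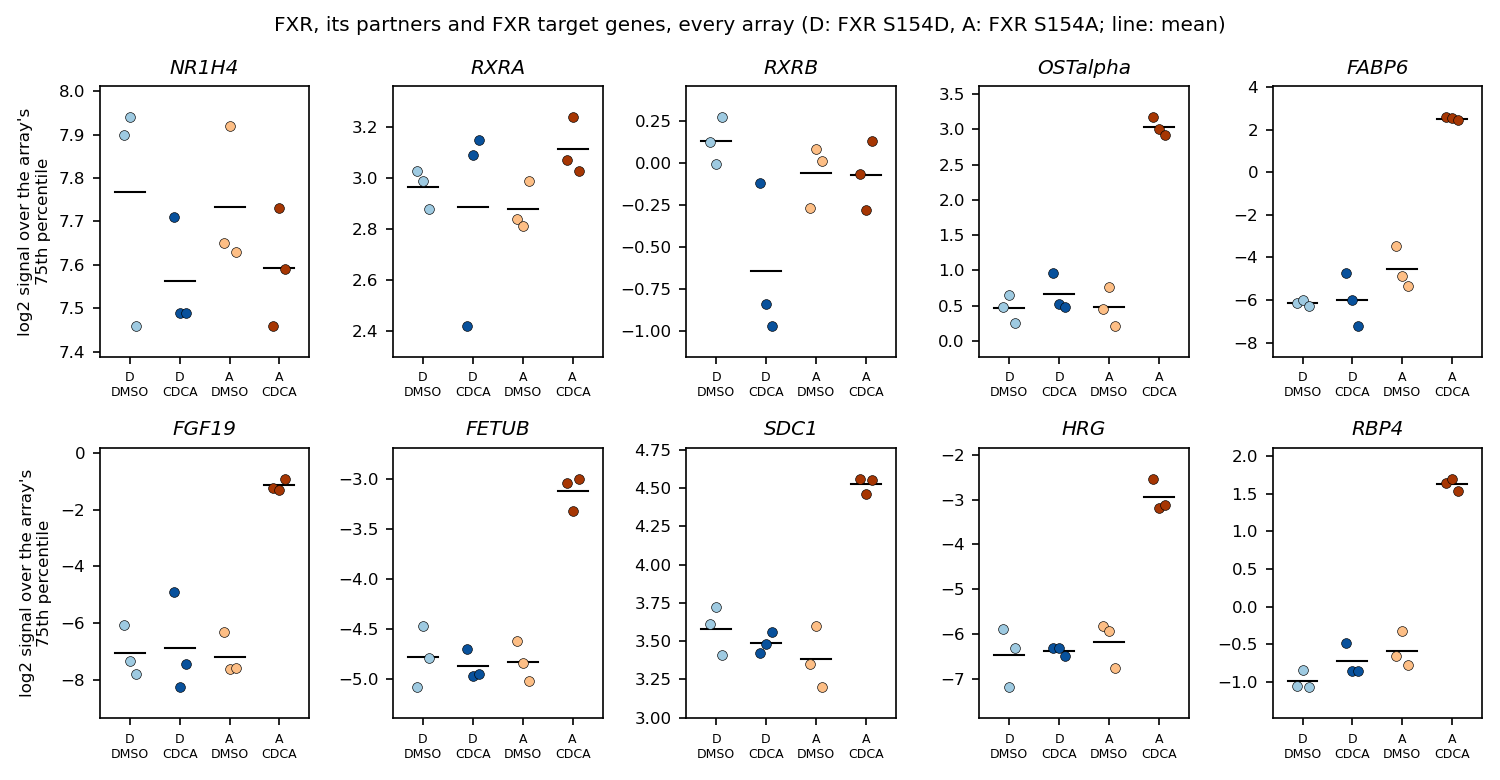
Each point is 1 array and each line a group mean of 3 arrays; the vertical axis is log2 signal over the array's 75th percentile, with its own range for each gene, and D and A stand for FXR S154D and S154A. With S154D the CDCA arrays of OSTalpha lie at 0.49 to 0.97 and its DMSO arrays at 0.25 to 0.65, whereas the S154A CDCA arrays reach 2.92 to 3.17.

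Over the list of FXR targets, 30 of 40 on the array were tested and 24 were well above background on all 6 S154D arrays. Of the 30, 0 were called higher and 1 was called lower, against 6.55% and 3.65% of all genes. The median change was -0.03 before and 0.01 after the GC correction, beside -0.01 and 0.00 over all genes tested. The gene called lower was FGFR4, the liver receptor for FGF19, which read -1.70, -1.74 and -1.61 with DMSO and -2.04, -2.55 and -2.73 with CDCA. FGFR4 fell by 0.75 ± 0.18 on the log2 scale (limma adjusted p = 0.0341) and was at -0.47 after correction (unadjusted p = 0.0197). The difference between the mutants' responses was called for 5 of the 30, each with the smaller response in S154D, and for 28 genes in all (0.138%); after the correction the numbers were 5 and 26. The list was chosen with earlier results of these data known, so its share beside that of all genes is not taken as support. The 5 include HRG, which was kept for testing only through the S154A CDCA arrays, so its call is not taken as support either. That count of 5 fell to 0 without S154D DMSO replicate 1, S154D CDCA replicate 2 or S154D CDCA replicate 3, to 2 without S154D DMSO replicate 2 and to 1 without S154D DMSO replicate 3; it was 0 with slide as a term.

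The wider response ran along probe GC. Among genes whose probe had at most 30% GC the median change was 0.59, and 90 of 235 were called higher and 0 lower. At over 40 up to 45% GC the median was 0.01 over 7346 genes. Above 60% GC it was -0.46, and 0 of 641 were called higher and 36 lower. Of the called genes with a probe under 45% GC, 1271 were higher and 59 lower; over 45% GC, 4 were higher and 578 lower. Spearman's rho between change and probe GC over the 20357 genes, which share arrays and are not independent, was -0.56 before and 0.02 after correction. In S154A cells the median change was 0.04 at the low end and -0.19 at the high end.

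Each array can be given a GC slope, the change in log2 value per 10 points of probe GC. The slopes were 0.076, 0.175 and 0.063 on the S154D DMSO arrays (0.105 ± 0.061, SD, n = 3) and -0.007, -0.159 and -0.292 on the S154D CDCA arrays (-0.153 ± 0.143). No CDCA slope reached a DMSO slope, and the difference of -0.257 gave p = 0.1 in a two-sided exact permutation test, the smallest that 3 arrays against 3 allow. The 6 S154A arrays ran from -0.093 to 0.134 and overlapped both ranges. The arrays were hybridised on 4 slides, of which only slide 3 held both S154D groups, with 1 array each; there the difference was -0.222. After the correction the difference over all arrays was 0.014. The part of labelling or RNA quality in the slopes was not tested.

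**Figure D2:**
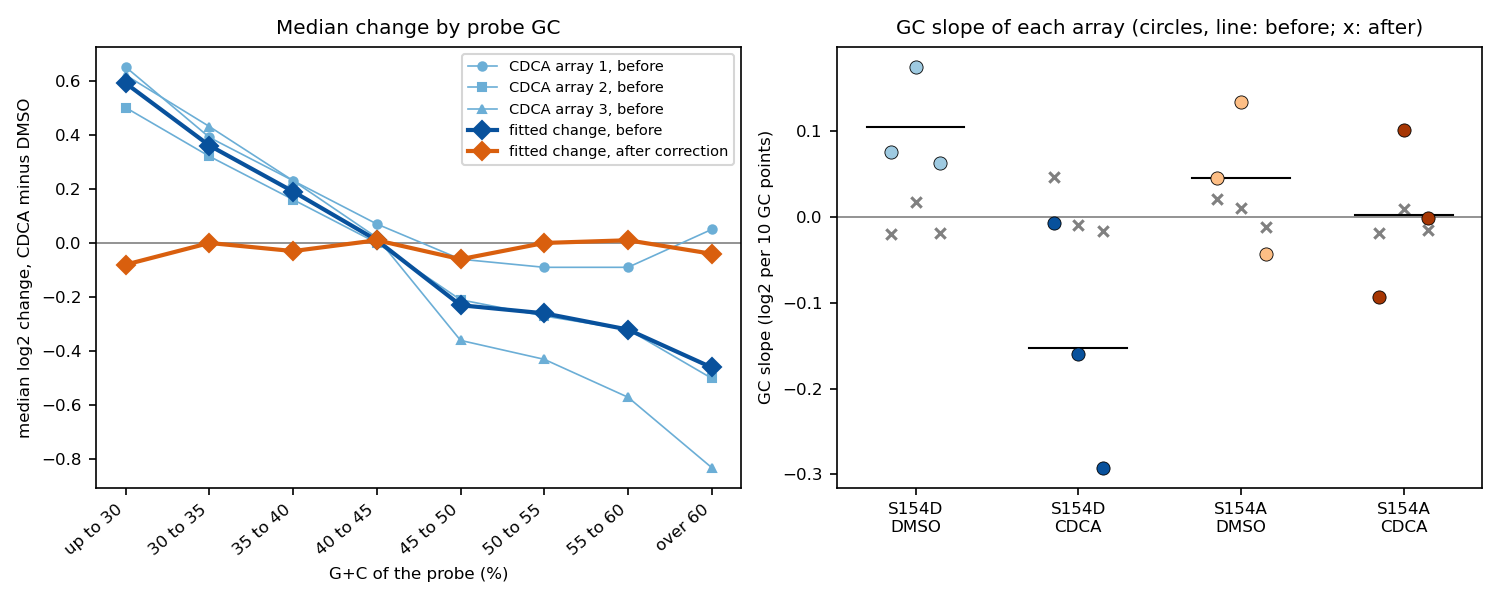
Left, median log2 change (CDCA minus DMSO, S154D cells) for genes grouped by the G+C percent of their probe, as fitted before and after correction and for each CDCA array against the DMSO mean; right, the GC slope of each of the 12 arrays. The fitted medians go from 0.59 at the lowest GC to -0.46 over 60% and lie between -0.08 and 0.01 after correction.

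The first CDCA array had the flattest trend. Against the DMSO mean its genes over 60% GC had a median of 0.05, whereas the other CDCA arrays gave -0.50 and -0.83; at the low end the 3 arrays gave 0.65, 0.50 and 0.62. The number called rested on single arrays: it was 0 without S154D DMSO replicate 3, 1 without S154D DMSO replicate 1, 1 without S154D CDCA replicate 3 and 752 without S154D CDCA replicate 2, and 0 with slide as a term in the fit. With centring on the array median in place of the 75th percentile, the median of all genes moved from -0.01 to 0.10 and 91.3% of the 1992 called genes were higher, against 64.2% of the 2077.

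Probes of the same gene gave a check that does not depend on which genes are involved. Among 5073 genes with at least 2 kept probes, the probe with more GC was set against the probe with less. Where the pair had equal GC the median difference in change was -0.04 over 563 genes. At a gap of over 5 up to 10 points it was -0.28 over 1710 genes, and at over 20 points it was -0.66 over 251 genes, of which 91.6% were below 0. After the correction these medians were -0.04, 0.01 and 0.00, and 49.8% were below 0 in the widest class. The curve was fitted to these same probes, so the corrected values follow from the fit and are no separate check.

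**Figure D3:**
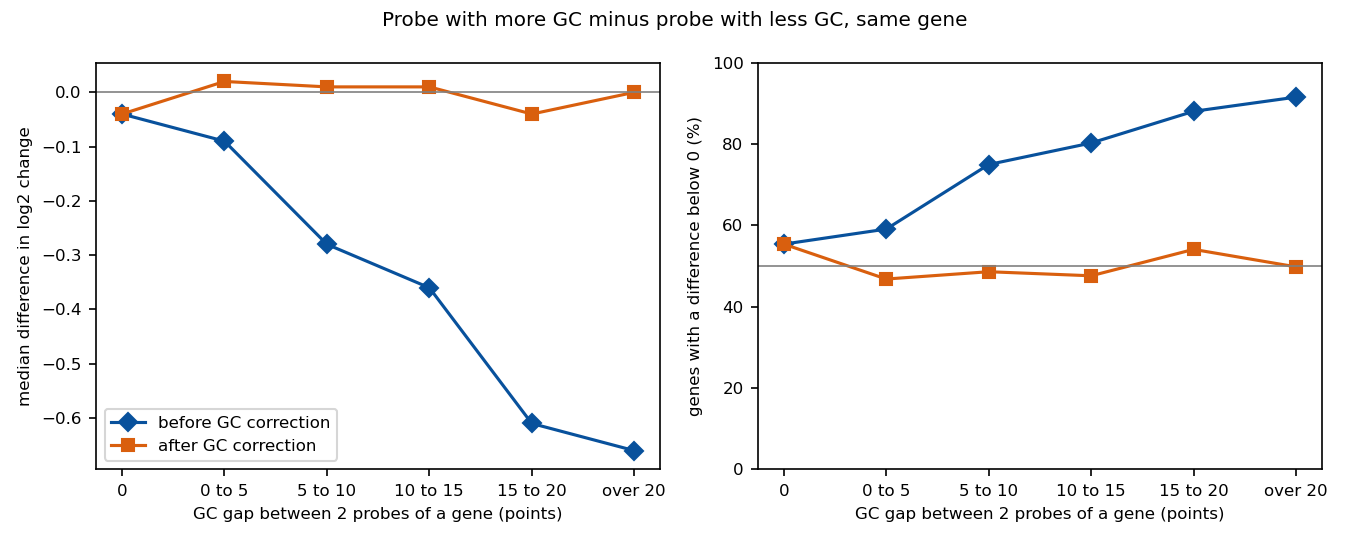
For genes with at least 2 probes, the log2 change of the probe with more GC minus that of the probe with less, by their GC gap in points: the median (left) and the percent of genes below 0 (right). The median falls from -0.04 at equal GC to -0.66 at gaps over 20 points and stays between -0.04 and 0.02 after correction.

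TRAF7, a ubiquitin ligase of TNF receptor signalling, shows this within 1 gene. Its probe of 18.3% GC gave 0.67 ± 0.18 and its probe of 51.7% GC gave -0.46 ± 0.18; after correction both were negative, -0.30 and -0.23. SYVN1, a ubiquitin ligase that clears misfolded proteins from the endoplasmic reticulum, gave 0.42 ± 0.11 with its probe of 28.3% GC and -0.55 ± 0.12 with its probe of 60% GC, then -0.19 and -0.22. VEGF, the vascular growth factor, gave 0.53 at 20% GC and -0.65 at 70% GC, with 2 probes at 45% GC at -0.42 and -0.12; corrected, all 4 were negative, from -0.38 to -0.09. Of the 58 genes with at least 2 probes that the rule for names took, 15 had probes of both signs before correction. Not all of these genes are described here.

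The genes that the correction shrank most lay at both ends of the GC range. ZNF516, a zinc finger protein with a probe of 18.3% GC, went from 1.07 ± 0.27 to 0.11. STK11, the kinase LKB1 that activates AMPK, read 0.58, 0.64 and 0.59 with DMSO and -0.01, 0.21 and -0.03 with CDCA. Without correction STK11 fell by 0.54 ± 0.14 (limma adjusted p = 0.0412); corrected, the difference was 0.03 (unadjusted p = 0.93). Its other probe, of 55% GC, gave -0.82 ± 0.28 and, corrected, -0.54 (unadjusted p = 0.094), so the probe with less GC had the lower value here. UCN, a stress peptide of the urocortin family, went from -0.60 to -0.07, ZDHHC8, a palmitoyltransferase, from -0.57 to -0.07, and EXOSC6, a subunit of the RNA exosome, from -0.85 to -0.33. The amount removed at the lowest GC depended on the method: with medians per GC class in place of the curve, TRAF7 stayed at 0.28, VEGF at 0.14 and ZNF516 at 0.68.

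SENP6, the protease that trims SUMO chains, was among those 8 genes but kept a difference. It read -4.87, -4.48 and -4.91 with DMSO and -3.31, -3.41 and -3.24 with CDCA, with a clear gap between the groups. SENP6 rose by 1.44 ± 0.18 (2.71-fold; limma adjusted p = 0.0265), and the corrected difference was 0.59 (unadjusted p = 7.4e-05). Its second probe, of 35% GC, gave 0.68 ± 0.21 and 0.32 (unadjusted p = 0.133).

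Of the 2077 called genes, 1302 kept an unadjusted p under 0.05 and their sign after the correction, 773 higher and 529 lower, while 32 changed sign. The median size of a called change went from 0.62 to 0.35. Over all genes, 9.81% were higher and 10.1% lower at an unadjusted p under 0.05 after correction, so those counts are the background for the numbers that follow. Among genes with a symbol that were well above background on all 6 arrays and did not overlap between treatments before and after, and had an unadjusted p under 0.05 after correction, 877 qualified for naming, 492 higher and 385 lower; most of the 12 largest of each direction by corrected change are described next.

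Of the rises, MGC33367 was the largest: it read -4.84, -5.10 and -5.06 with DMSO and -2.83, -4.13 and -2.37 with CDCA. The CDCA arrays spread widely but stayed above the DMSO arrays, with a change of 1.89 ± 0.52 (limma adjusted p = 0.0474) and 2.08 after correction. PPA2, the mitochondrial inorganic pyrophosphatase, read -2.83, -2.15 and -2.52 and then -0.93, -1.45 and -1.20. PPA2 rose by 1.31 ± 0.21 (2.48-fold; limma adjusted p = 0.0265), with 0.96 after correction (unadjusted p = 0.000438). CFD, the complement factor D protease, read 0.67, 0.99 and 0.66 and then 1.53, 1.30 and 1.22. With a probe of 55% GC, CFD went against the trend: 0.57 ± 0.16 before (limma adjusted p = 0.0464) and 0.85 after correction (unadjusted p = 8.14e-05).

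HMG4L, a relative of the HMGB chromatin proteins, had the tightest groups among the rises. It read -2.48, -2.59 and -2.53 with DMSO and -1.75, -1.70 and -1.60 with CDCA, a rise of 0.85 ± 0.12 (1.80-fold; limma adjusted p = 0.0265) and 0.82 corrected. In S154A cells the change was -0.36, and the difference of responses of 1.21 ± 0.17 was called (limma adjusted p = 0.0403), though not after the correction (1.13, adjusted p = 0.0521). Because HMG4L resembles other HMGB sequences, its probe may read more than 1 transcript. CBWD2, of a family of near-identical copies, rose by 0.81 ± 0.19 with its brightest probe, and its 3 probes ran from 0.50 to 0.91 and, corrected, from 0.01 to 0.85.

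The transcription factors of the zinc finger family ZNF675, ZNF721 and ZNF627 rose by 1.03, 1.08 and 0.80, with corrected changes of 0.88, 0.86 and 0.83. ARRDC4, an arrestin-like protein that limits glucose uptake, rose by 1.34 ± 0.36 (limma adjusted p = 0.045; corrected 0.98, unadjusted p = 0.0179). The uncharacterised genes FLJ44894 and C10orf57 rose by 0.99 and 1.21, with 1.03 and 0.85 after correction. FUBP3, a single-stranded DNA-binding protein, rose by 1.23 ± 0.29 with the probe used, of 40% GC, but its other probe, of 51.7% GC, gave -0.38 ± 0.17, so its direction is not settled.

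Among the falls, HFE, the regulator of iron uptake whose loss causes haemochromatosis, was the largest after correction. It read -2.79, -3.35 and -2.38 with DMSO and -4.51, -5.29 and -4.06 with CDCA. HFE fell by 1.78 ± 0.50 (limma adjusted p = 0.0491) and was at -2.13 corrected, against the trend for a probe of 35% GC; its other probes gave -1.54 and -0.57. DPYSL5, a collapsin response mediator of neurons, read -3.98, -4.11 and -2.80 and then -4.70, -5.13 and -5.14, a change of -1.36 ± 0.32 with its highest value on 1 DMSO array. The olfactory receptor OR10A5 gave -1.78 and, corrected, -1.94.

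TNPO3, the importin that brings splicing factors into the nucleus, read -0.41, -0.86 and -0.21 and then -2.12, -1.21 and -1.41, a change of -1.09 ± 0.30 before and -1.18 after correction. HOXB7, a homeobox factor, MAP1A, a microtubule-associated protein, and PPM1F, a phosphatase of CaM kinases, fell by 1.03, 0.91 and 0.84 and were at -1.25, -1.13 and -1.13 after correction. The other PPM1F probe, of 55% GC, gave -0.35 ± 0.28 and -0.06 corrected. LRCH3 and C19orf22 fell by 1.17 and 1.28, with corrected changes of -1.14 and -1.09. SLC26A1, a sulfate transporter of kidney and liver, fell by 1.73 ± 0.48 with the probe used, whereas its 3 other probes gave -0.33, 0.06 and 0.33.

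**Figure D4:**
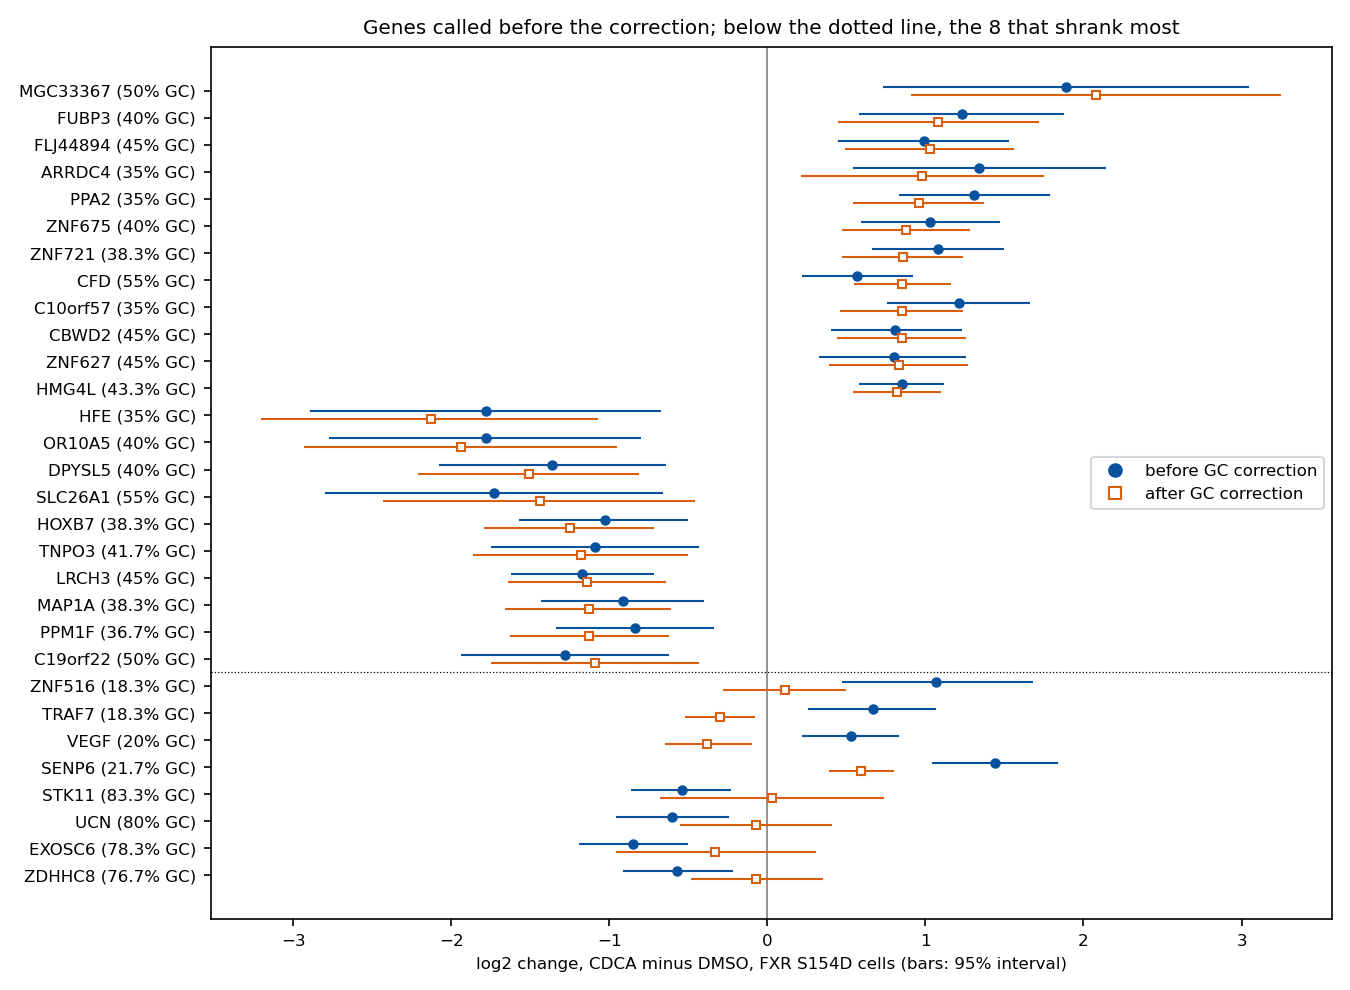
Log2 change (CDCA minus DMSO, S154D cells) with its 95% interval for the named rises and falls and, below the dotted line, the 8 genes that the GC correction shrank most; filled circles are before and open squares after correction. CFD moves from 0.57 to 0.85 and MAP1A from -0.91 to -1.13, away from 0, whereas STK11 moves from -0.54 to 0.03.

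ALDH3A1 and GATM fell outside the naming rule because they were not well above background on all DMSO arrays, and were picked out after their values were seen. ALDH3A1, an aldehyde dehydrogenase abundant in cornea, was well above background on 0 DMSO and 3 CDCA arrays. It read -6.79, -7.72 and -7.72 and then -4.15, -5.40 and -3.75, at least 3.09-fold higher with CDCA (a mean of -4.44 against a bound of -6.06, measured -7.41). No test is given for ALDH3A1, since its DMSO level is only a bound. GATM, the first enzyme of creatine synthesis, read -6.36, -5.79 and -6.42 and then -4.46, -4.61 and -4.51. GATM was well above background on 1 DMSO array and 3 CDCA arrays, and these values are given as a description, with no test.

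Genes with several probes of the same sign are listed next. Their agreement follows from how they were picked, and their probes were read on the same arrays. Of 1088 genes with a symbol and at least 3 kept probes, 423 had the same sign on every probe before correction, and 39 also kept that sign after it and had an unadjusted limma p under 0.05 on each probe before it, 21 higher and 18 lower. NUPL1, a nuclear pore protein, had 3 probes at 0.55 to 0.77, and 0.26 to 0.50 corrected. RAB1A, the GTPase of transport from the endoplasmic reticulum to the Golgi, had 3 at 0.27 to 0.55, and 0.05 to 0.52 corrected. DCUN1D1, which promotes neddylation, ABHD13, a hydrolase whose probes include one of 18.3% GC, and FLJ40432 had medians of 0.58, 0.54 and 0.76, and of 0.22, 0.19 and 0.14 corrected.

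With negative changes, MAP4, a microtubule-binding protein, had a median of -0.61 before and -0.67 after correction: its 3 probes, of 35% to 55% GC, gave -0.70 to -0.57 before and -0.96 to -0.28 after. TSPAN33, a tetraspanin, had a median of -0.73 before and -0.76 after. MLLT1, a reader of acylated histones, went from -0.76 to -0.47, TMEM142B, the calcium channel subunit now named ORAI2, from -0.90 to -0.62, BIN3, a membrane-bending protein, from -0.68 to -0.54, and PDE4C, a cAMP phosphodiesterase, from -0.60 to -0.34.

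Gene lists were then read against the background of 6.55% called higher and 3.65% called lower. In the list counts below, rose and fell mean called higher and called lower. Their medians ran from -0.27 (leukocyte markers) to 0.19 (bile acid synthesis and transport) before and from -0.22 to 0.15 after correction. The coregulators and partners of FXR counted 0 called higher and 3 lower of 25 tested, with a median of -0.15 and, corrected, -0.05. RXRB was described above. HDAC3, the deacetylase of corepressor complexes, fell by 0.53 ± 0.15 and was at -0.50 corrected (unadjusted p = 0.00481), whereas PRMT1, an arginine methyltransferase, fell by 0.40 and was at -0.11 corrected. SIRT1, the deacetylase that acts on FXR, was not called (0.40, limma adjusted p = 0.0551). Of 11 genes of bile acid synthesis and transport, 1 was called: ACOX2, which shortens the bile acid side chain in peroxisomes, rose by 0.61 ± 0.13 and was at 0.52 corrected (unadjusted p = 0.00207).

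Signalling and protein modification lists came next. Of 28 genes of SUMO and ubiquitin conjugation 3 rose and 2 fell. RANBP2, the SUMO ligase of the nuclear pore, rose by 1.09 ± 0.21 (corrected 0.73, unadjusted p = 0.00263), though its other probe gave -0.16. SENP3, a nucleolar SUMO protease, fell by 0.68 ± 0.10 (corrected -0.46, unadjusted p = 0.00588), and PIAS4, a SUMO ligase, by 0.85 (corrected -0.52). Of 31 genes of protein kinase C and ERK signalling 0 rose and 4 fell: the kinases PRKD2, MAP2K2, PRKCD and ARAF, by 0.56, 0.62, 0.45 and 0.54; corrected they were at -0.27, -0.36, -0.23 and -0.26. Their probes have 51.7% to 55% GC. In the list of PI3K, AKT and mTOR 1 of 23 was called, AKT1, the kinase of insulin signalling, which fell by 1.19 ± 0.31 and was at -0.96 corrected; the list's median of 0.17 became -0.05.

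Stress lists were mixed as well. GCLM and GCLC, both subunits of the enzyme that limits glutathione synthesis, were the 2 called genes of 22 in the NRF2 list. GCLM read 0.75, 0.81 and 0.71 with DMSO and 1.31, 1.35 and 1.60 with CDCA. GCLM rose by 0.66 ± 0.14 (limma adjusted p = 0.03; corrected 0.31, unadjusted p = 0.0383), and GCLC rose by 0.58 ± 0.13 (corrected 0.29, unadjusted p = 0.0296). The list's median was -0.04 and then 0.00. In the unfolded protein list 4 of 36 rose and 1 fell: EIF2AK3, the sensor PERK, rose by 0.79, DNAJB9, a chaperone partner, by 0.67 and ATF3, a stress-induced factor, by 0.52, with 0.44, 0.32 and 0.30 corrected, while SYVN1 depended on the probe as above. A second ATF3 probe of the same GC gave 0.01 ± 0.18 and -0.21 corrected. Of 29 heat shock genes 4 rose and 1 fell; HSF2, a heat shock factor, rose by 0.78 ± 0.13 and kept 0.75 (unadjusted p = 0.000207), while BAG3 and HSPA9B, a co-chaperone and the mitochondrial chaperone, went from 0.58 and 0.48 to 0.23 and 0.12. The other probe of HSF2 gave 0.14 and -0.01 corrected, and that of BAG3 gave -0.24 and -0.46, so these rises rest on 1 of 2 probes. HSPB8, a small heat shock protein, fell by 0.40 and was at -0.36 corrected.

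Growth and death lists gave 4 called higher and 3 lower of 40 for the cell cycle. FBXO5, which restrains the anaphase-promoting complex, rose by 1.06 ± 0.16 and CCNB1, the mitotic cyclin, by 0.62 ± 0.11, with 0.71 and 0.47 corrected (unadjusted p = 0.000455 and 0.000948). The response of FBXO5 differed from that in S154A cells by 1.57 (limma adjusted p = 0.0421; corrected 1.19, adjusted p = 0.066). CDC20, an activator of the same complex, fell by 0.53 and was at -0.28 corrected. CDK6, a kinase of the G1 phase, gave 0.72 with the probe used and -1.07 ± 0.62 with its other. In the p53 and apoptosis list 2 of 25 rose and 3 fell: BAX, which opens mitochondria in apoptosis, fell by 0.67 ± 0.14 and was at -0.63 corrected (unadjusted p = 0.000981), and its relative BAK1 by 0.42 and was at -0.14. The other BAX probes, of 83.3% and 73.3% GC, gave -0.24 and -1.02, and 0.34 and -0.55 corrected. SESN1, a sestrin, rose by 0.40 and was at 0.11 corrected. In the autophagy and lysosome list 3 of 29 rose and 3 fell, with 5 higher and 8 lower at an unadjusted p under 0.05 after correction. MAP1LC3C, an LC3 protein, and CTSD, a lysosomal protease, fell by 1.10 and 0.73 and were at -0.82 and -0.47 corrected; ATG5 and ATG12, partners in autophagosome formation, rose by 0.52 and 0.40 and were at 0.17 and 0.11, with 0.04 from a second ATG12 probe before correction.

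For the mitochondrial respiratory chain 4 of 82 were called higher and 1 lower, below the background share for each direction. After correction 17 had an unadjusted p under 0.05 with a positive change and 3 with a negative one, 58 of 82 changes were positive against 49.5% of all genes, and the median was 0.14 (0.10 before; 0.13 within slide 3). NDUFA6 of complex I rose by 0.87 ± 0.20 and was at 0.72 corrected (unadjusted p = 0.00464). ATP5F1 of ATP synthase rose by 0.79 and COX18, an assembly factor of cytochrome oxidase, by 0.54, with 0.44 and 0.32 corrected. NDUFV1, with a probe of 60% GC, fell by 0.42 and was at -0.09. Ribosomal protein genes, in contrast, had 1 called in each direction of 79: RPS12 rose by 0.96 (corrected 0.60) and RPS2 fell by 0.48 (corrected -0.20). Of 37 proteasome subunits 3 rose and 1 fell, the fall being PSMD2, a base subunit, by 0.87 ± 0.25 and was at -0.84 corrected; PSMD14, the deubiquitinase, rose by 0.42 and was at 0.27.

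Secretion, RNA decay and metabolism added single genes. In the vesicle coat list, 3 of 25 rose and 2 fell: COPB1, of the COPI coat, rose by 0.77 and LMAN1, a cargo receptor, by 0.70 (0.42 and 0.35 corrected; 0.15 and -0.14 from a second LMAN1 probe), and SEC24C, of the COPII coat, fell by 1.10 ± 0.23 and was at -0.96 corrected. In the mRNA decay list, 2 of 29 rose and 1 fell; EDC4, the scaffold of decapping, fell by 1.12 ± 0.24 and was at -0.84 corrected, and EXOSC9, an exosome subunit, rose by 0.59 and was at 0.43. Of 34 genes of fatty acid metabolism 2 rose and 1 fell: FASN, the fatty acid synthase, by 0.79 ± 0.18 and was at -0.49 corrected. SC5DL, a late enzyme of cholesterol synthesis, was the 1 called of 30 in its list, at 0.71 and 0.56 corrected. ASS, the urea cycle enzyme argininosuccinate synthase, fell by 0.83 ± 0.15 and was at -0.58 corrected (unadjusted p = 0.00103), in a list with 2 of 25 called higher and 1 lower. The 2 include GATM, which was well above background on only 1 DMSO array, so its call is not used. In S154A cells ASS was at 0.73, and the difference of -1.57 was called before and after correction (limma adjusted p = 0.0371 and 0.0309). ALDH9A1, an aldehyde dehydrogenase, rose by 0.81 (0.52 corrected). Its list counts 2 called of 18, but the other is ALDH3A1, whose DMSO level is only a bound, so that call is not used. SULT1A1, a sulfotransferase, was the 1 called of 38 xenobiotic genes, at -0.42 and -0.14. HFE was the 1 called of 16 iron genes.

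In the interferon and NF-kB list 3 of 32 rose and 3 fell. IFIT2, an interferon-induced protein, rose by 0.68 ± 0.16 and was at 0.71 corrected (unadjusted p = 0.00116), with 0.04 ± 0.59 and -0.18 from its other probe, whereas STAT2, a factor that transmits interferon signals, fell by 0.64 ± 0.11 and was at -0.60. NFKB2 fell by 0.64 (corrected -0.35), and BIRC3, a target of NF-kB, rose by 0.54 (0.18 corrected). The list's median was 0.18 and then 0.15. Among 14 epithelial markers 3 rose and 1 fell: the tight junction genes OCLN and CLDN1 by 0.51 and 0.63, and TACSTD1 (EPCAM) by 0.52, with 0.22, 0.60 and 0.16 corrected, and CLDN4 fell by 0.69 and was at -0.39. The second CLDN1 probe gave 0.09 ± 0.17 and 0.13 corrected. Of 22 kidney and mesenchymal markers 1 was called, COL1A1, which fell by 0.56 (corrected -0.33), and of 9 hepatocyte and enterocyte and 12 leukocyte markers 0 were called.

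Zinc finger genes named ZNF made up the longest list. Of 382 tested, 58 rose and 5 fell (15.2% and 1.31%), with a median change of 0.17 and a median probe GC of 41.7%. After correction the median was 0.06, and 68 had an unadjusted p under 0.05 with a positive change and 17 with a negative one; 39 of the 63 called genes kept a p under 0.05. ZNF674 and ZNF350 rose by 0.91 each and kept 0.55 and 0.62 (unadjusted p = 0.00089 and 0.000599). ZNF700 and ZNF33A rose by 0.62 and 0.72 and were at 0.26 and 0.36 corrected, but the other ZNF33A probe, of 45% GC, gave 0.07 ± 0.10 and 0.11.

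Genes often used as a stable reference changed too. Of 16 housekeeping genes 3 rose and 2 fell, and those named here follow probe GC. TBP, the TATA-binding protein (36.7% GC), read -2.57, -2.41 and -2.43 with DMSO and -1.59, -1.85 and -1.61 with CDCA; it rose by 0.79 ± 0.13 (limma adjusted p = 0.0265) and was at 0.50 corrected (unadjusted p = 0.000581). GAPDH, the glycolytic enzyme (55% GC), read 6.15, 6.10 and 6.13 and then 5.43, 5.79 and 5.65. It fell by 0.50 ± 0.13 (limma adjusted p = 0.0412) and was at -0.22 corrected (unadjusted p = 0.182). GUSB, a lysosomal enzyme (35% GC), rose by 0.62 and TUBB, a tubulin (50% GC), fell by 0.59, with 0.26 and -0.40 corrected.

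**Figure D5:**
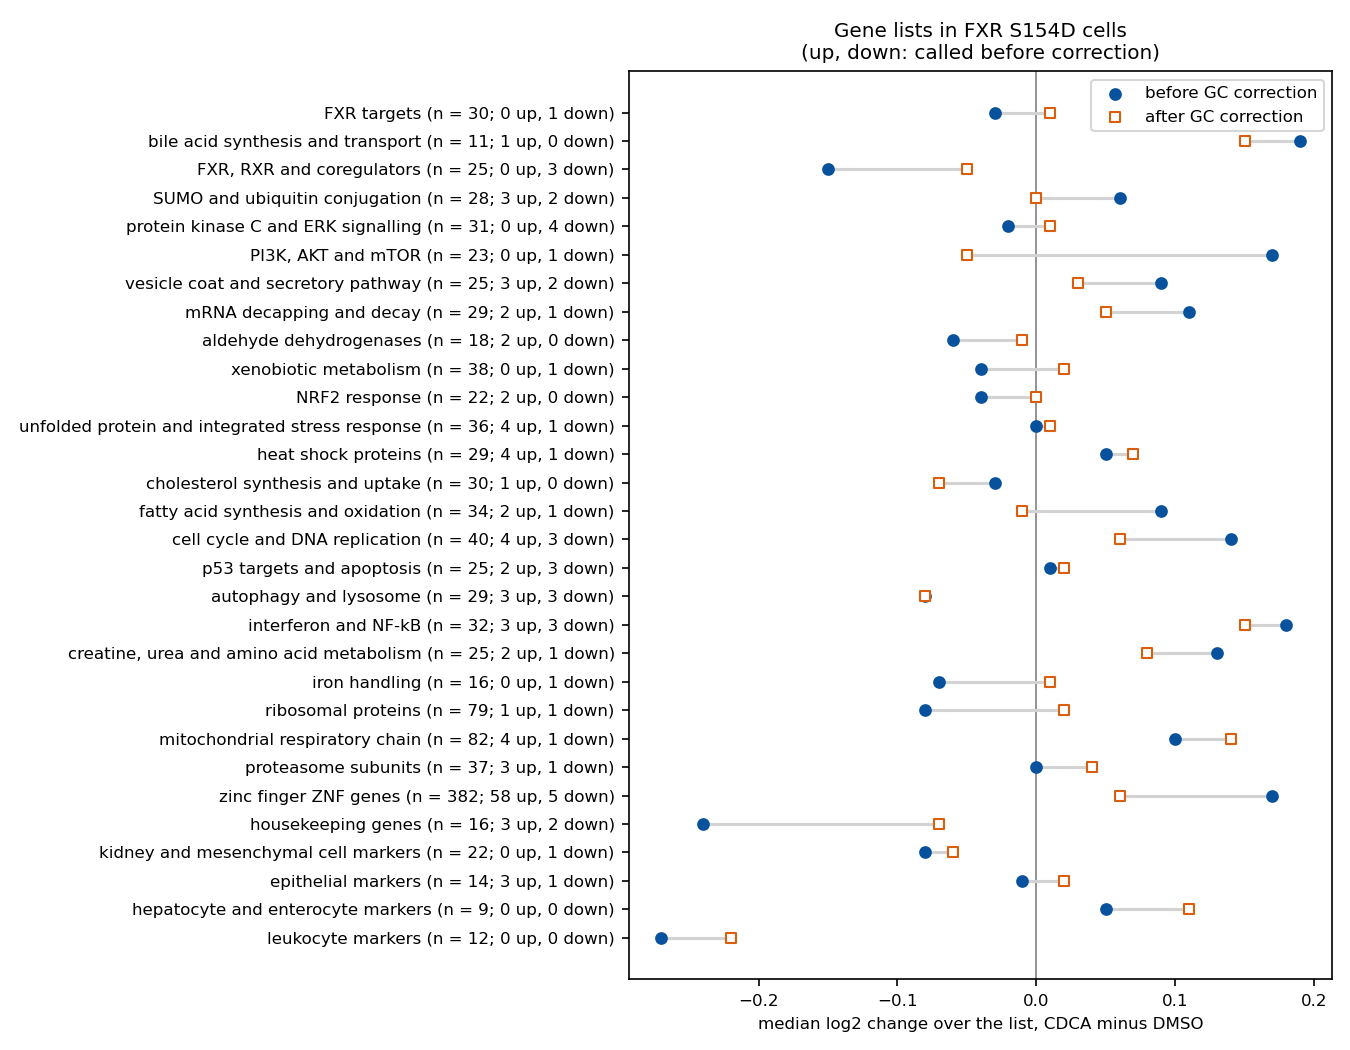
Median log2 change (CDCA minus DMSO, S154D cells) of each gene list before (circles) and after (squares) the GC correction; the labels give the number of genes tested and the numbers called before the correction. The ZNF list moves from 0.17 to 0.06 and the list of PI3K, AKT and mTOR from 0.17 to -0.05, whereas the respiratory chain moves from 0.10 to 0.14.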

How the data were processed

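The authors deposited 1 scanner file per array. The processed signal in it is an intensity on a linear scale, per the file headers made by Agilent Feature Extraction 9.5.3.1 (the submitters' processing notes give version 12); the deposited series table held equal intensity values for all 45015 features of each array. Values were log2-transformed and centred on each array's 75th percentile of the non-control probes. Outlier-flagged spots were left out, and 115 genes lacked a value on at least 1 array. Of 41000 probes, 26901 were kept, those that every array of 1 or more of the 4 groups measured well above background, and the brightest was used per gene name. Differences were tested with limma 3.58.1 in R 4.3.3 (lmFit and eBayes, 8 residual and 2.3 prior degrees of freedom) with Benjamini-Hochberg adjustment over all 20357 genes. The GC correction subtracted a lowess curve (span 0.5) over the GC percent of the 60-base probe. The steps were tested on simulated data with and without an added GC trend. The number of arrays limits the precision. Slides come from the file headers; the 2 arrays of slide 4 (S154D DMSO replicate 2 and S154A CDCA replicate 2) were scanned on another day than the rest.

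The members, the gene lists and the rule for names were chosen with earlier results of these data known. The rule took the receptor, its partners and 11 FXR genes; the 12 largest rises and 12 largest falls after correction among called genes well above background on all 6 S154D arrays; the 4 rises and 4 falls that shrank most; up to 4 genes per list by p; and the 6 largest genes of each direction with at least 3 concordant probes. A probe well above background on no array of a group has only a bound there, given as "at least". Alternatives concerned normalisation, filter, probe choice, block, slide and arrays left out. Some genes that the rule named are not reported here.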

Additional observations from a re-analysis of the deposited data

Results flagged for a closer look

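Some genes responded to CDCA differently in S154D and S154A cells by the test of the difference itself (limma, 3 arrays per group, Benjamini-Hochberg over all genes). The S154D minus S154A differences of the log2 response were -6.92 for FABP6, -2.36 for OSTalpha and -1.95 for RBP4. For FETUB and SDC1 they were -1.80 and -1.23. Each of these genes had the higher response in S154A cells, and FETUB and SDC1 were at -0.10 and -0.09 in S154D cells. FABP6 was near background in S154D cells, so the size of its difference is uncertain. HRG was kept for testing only through the S154A CDCA arrays, where it is high, so its call is not taken as support. It was well above background on 0 of 3 S154D CDCA arrays, so its fitted -3.15 is no measured size. With CDCA it was at least 9.77-fold higher in S154A than in S154D cells. For ASS, the urea cycle enzyme, the difference was -1.57, with a change of -0.83 in S154D and 0.73 in S154A cells. HMG4L and FBXO5 differed the other way, by 1.21 and 1.57, with changes of -0.36 and -0.51 in S154A cells. After the GC correction the differences of HMG4L (adjusted p = 0.0521) and FBXO5 (adjusted p = 0.066) missed the threshold, and the others were called.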

How the results depend on the processing

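The count of 2077 called genes was 1 on the deposited series table without scaling and 0 without a filter, with the GC correction by curve or by class medians, with slide as a term (4502 genes at an unadjusted p under 0.05) with or without the GC correction, and in a fit of only the 6 S154D arrays. It was 3 without slide 1, 50 without slide 2 and 0 without slide 3, and ran from 0 to 2119 when 1 array was left out. After the GC correction the count was 2 with a variance trend, 3 without slide 1 and 21 without slide 2, and ran from 0 to 14 with 1 array left out. The 5 FXR targets with a different response became 3 with median centring or a filter on all 12 or all 6 arrays, 1 on the series table, 0 without a filter, 0 with slide as a term, 0 without slide 1, 3 or 4 and 1 without slide 2, and ran from 0 to 4 with 1 array left out. The GC slope of the CDCA change in S154D cells ran from -0.337 to -0.165 under the alternatives without a GC correction, which brings it to 0.014. The causes were not tested.

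With the replicate number as a block 0 genes were called (6109 at an unadjusted p under 0.05), 0 with the block and the GC correction, and 2 FXR targets differed. Same-numbered arrays did not deviate together (correlations of -0.21, -0.23 and 0.22), so the numbers were not taken as pairs.

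Some named changes turned sign. TRAF7 was at -0.30 with the GC curve, -0.30 with the block added and -0.34 with slide added. VEGF was at -0.38, -0.38 and -0.49 in the same fits and at -0.17 as the mean of its probes. SYVN1 was at -0.19, -0.19 and -0.25, and at -0.07 as a mean of probes. STK11 was at 0.03 with the curve and 0.03 with the block added. CDK6 was at -0.18 as a mean of probes and GUSB at -0.04 with slide and the curve. FUBP3 ran from -0.44 to 1.41 with 1 array left out, with -0.44 and -0.23 without S154D CDCA replicate 1 or 3, and at -0.20 without slide 2, where its other probe was the brighter.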
